A study of Mus musculus with 2 samples.

Results

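The 32 genes described here encode hydrolases, their activators, membrane proteins and proton pump subunits of the lysosome, and a regulator of lysosomal genes, Tfeb. They were chosen by gene symbol from a fixed list, and all 32 symbols were found among the 32285 genes of the count matrices. They comprised 7 proteases or peptidases and 7 glycosidases, lipid-handling proteins and activators. A further 5 were the genes of membrane proteins together with the regulator Tfeb, and 13 were genes of the vacuolar proton pump (V-ATPase). The pump genes were 7 of the cytosolic V1 sector and 6 of the membrane V0 sector and its accessory proteins. Hippocampal nuclei of 6-week-old C57BL/6J mice were sequenced after bilateral intracerebroventricular injection of adeno-associated virus (AAV) on postnatal day 0. Both vectors carried a human MAPT transcript. The AAV-STOP control vector held an early stop codon that prevents translation of tau, and the AAV-TAU vector expressed full-length 2N4R wild-type human tau. Each group was 1 library from the pooled hippocampi of 3 mice, with about 20000 nuclei loaded. With 1 library per group no test of the libraries was possible, and the intervals below are 95% intervals for counting error only.

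Lysosomes degrade proteins, lipids and glycans delivered by endocytosis and autophagy, and their hydrolases work at acid pH. The V-ATPase makes that pH: its V1 sector hydrolyses ATP in the cytosol, and its V0 sector moves protons across the membrane. V1 and V0 can come apart and reassemble, which regulates the pump, and neurons also use the pump to load synaptic vesicles with transmitter. TFEB, a basic helix-loop-helix factor, switches on many lysosomal genes through a promoter element built around the palindrome CACGTG. In brain, microglia and macrophages are known for abundant lysosomal proteases.

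To see which members carry that palindrome, the 250 bases before each RefSeq start site (build GRCm38.p6) were searched on both strands for CACGTG and for the longer TCACGTG, which contains it and reads CACGTGA on the other strand. RefSeq promoter windows were matched by symbol for 27 of the 32 members. CACGTG was found in 9 of these 27 (33.3%), against 6.86% of 27025 genes. TCACGTG was found in 8 of 27 (29.6%), against 3.58% of all genes, and in 23.5% of the 34 member windows against 3.13% of all windows of the same length. The 8 were Lamp1, Ctsa, Ctsd, Lgmn, Gaa, Gla, Atp6v0b and Atp6v1a, so that 2 of the 10 V-ATPase genes with a window held it. The stretches below show how the match is repeated in some members and single in others. Capitals mark TCACGTG or CACGTGA, joined where both overlap, with up to 10 flanking bases, 5′ to 3′ on the gene's strand.
Lamp1 (chr8:13159089-13159160, plus strand): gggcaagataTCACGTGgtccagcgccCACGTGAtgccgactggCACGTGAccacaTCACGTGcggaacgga
Ctsa (chr2:164833750-164833772, plus strand): gagcaaactgTCACGTGAtgcag
Lgmn (chr12:102439126-102439152, minus strand): ggaatgtctgTCACGTGgtccatttta
Gaa (chr11:119267812-119267838, plus strand): ttctgtgcgaTCACGTGtttgactctg
Gla (chrX:134601183-134601243, minus strand): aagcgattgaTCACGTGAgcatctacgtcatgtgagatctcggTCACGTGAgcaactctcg
Atp6v0b (chr4:117887332-117887376, minus strand): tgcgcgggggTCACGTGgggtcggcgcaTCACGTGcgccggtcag
Atp6v1a (chr16:44139374-44139401, minus strand): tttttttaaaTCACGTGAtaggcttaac
Lamp1 held 4 separate matches, the nearest of them 9 bases before the start site. Atp6v0b, Gla and Ctsd held 2 separate stretches each, and those of Ctsd, 91 to 245 bases before the start site, lie too far apart to be shown. In Atp6v1a the match lay 124 bases before the start site and in Ctsa 5 bases. In 7 of the 8 members, all but Lamp1, the RefSeq start lies inside the GENCODE gene model, by 4 bases (Atp6v0b) to 900 bases (Ctsa). These are letter matches, and binding was not measured.

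The matrices held 20265 AAV-STOP and 19596 AAV-TAU barcodes, of which 116 were shared by both libraries, with 130252240 and 109428807 unique molecular identifiers (UMIs). The counts are from nuclei, so RNA levels of whole cells were not measured. Some RNA from outside the nucleus was counted too, as the mitochondrial share below shows. After removal of marked doublets, 17914 and 17781 nuclei were kept, and 14731 and 14695 of them lay in clusters named from marker genes. Each class is written with "-like", because the names rest on markers. The 32 members took 0.264% of the AAV-STOP UMIs and 0.295% of the AAV-TAU ones. The median mitochondrial share of UMIs was 0.174% and 0.28%. The gene list holds mouse Mapt and no transgene, so the vector labels could not be checked from these counts. In 13 members the gene body overlaps a gene on the opposite strand and in 5 one on the same strand. How strand was used in counting is not given in the sources used here, so reads of such pairs cannot be told apart.

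Levels were first compared between classes within each library, as UMIs of a gene per 1000000 UMIs of the class (CPM). The members were kept out of the genes that defined the clusters. The lysosomal proteases stood far above their usual level in microglia-like and border macrophage-like nuclei. The highest class exceeded the lowest by 6.47-fold to 82.2-fold for the proteases and by 1.4-fold to 4.58-fold for the pump genes, on the CPM + 5 scale. A member counted as raised in a class when CPM + 5 was at least 2-fold its median over the 18 classes in both libraries. In microglia-like nuclei this held for 13 of the 31 members that passed the level filter (41.9%), against 9.41% of all 10696 genes tested. In border macrophage-like nuclei it held for 11 of 31 (35.5%, against 9.34%), in oligodendrocyte-like for 3 (9.68%, against 6.8%) and in newly formed oligodendrocyte-like for 3 (9.68%, against 6.5%). The single raised member of the endothelial-like and fibroblast or leptomeningeal-like classes was Ctsz (3.23% in each, against 9.12% and 8.88%), a share below the background. No V-ATPase gene was among the raised members. In both libraries, 22 of the 32 members had their highest level in microglia-like or border macrophage-like nuclei, among them 9 of the 13 pump genes. These 22 were 71% of the members that passed the filter, against 16.8% of all genes tested. The level filter was a mean of 10 CPM over classes and libraries. Ctsz, counted among the 22 and as raised, passed it only through its microglia-like and border macrophage-like levels.

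The border macrophage-like class was small, 76 AAV-STOP and 75 AAV-TAU nuclei, and held oligodendrocyte transcripts. All 7 oligodendrocyte markers were detected there, at 159 to 2792 CPM in AAV-STOP and 70.4 to 2193 CPM in AAV-TAU. They summed to 6781 and 5798 CPM, against 3760 and 6776 CPM for the 6 markers of border macrophages and 16342 and 15070 CPM for the oligodendrocyte markers in oligodendrocyte-like nuclei. In microglia-like nuclei the oligodendrocyte markers summed to 1522 and 1764 CPM. The part of oligodendrocyte RNA in the border macrophage-like levels was not tested.

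**Figure D1:**
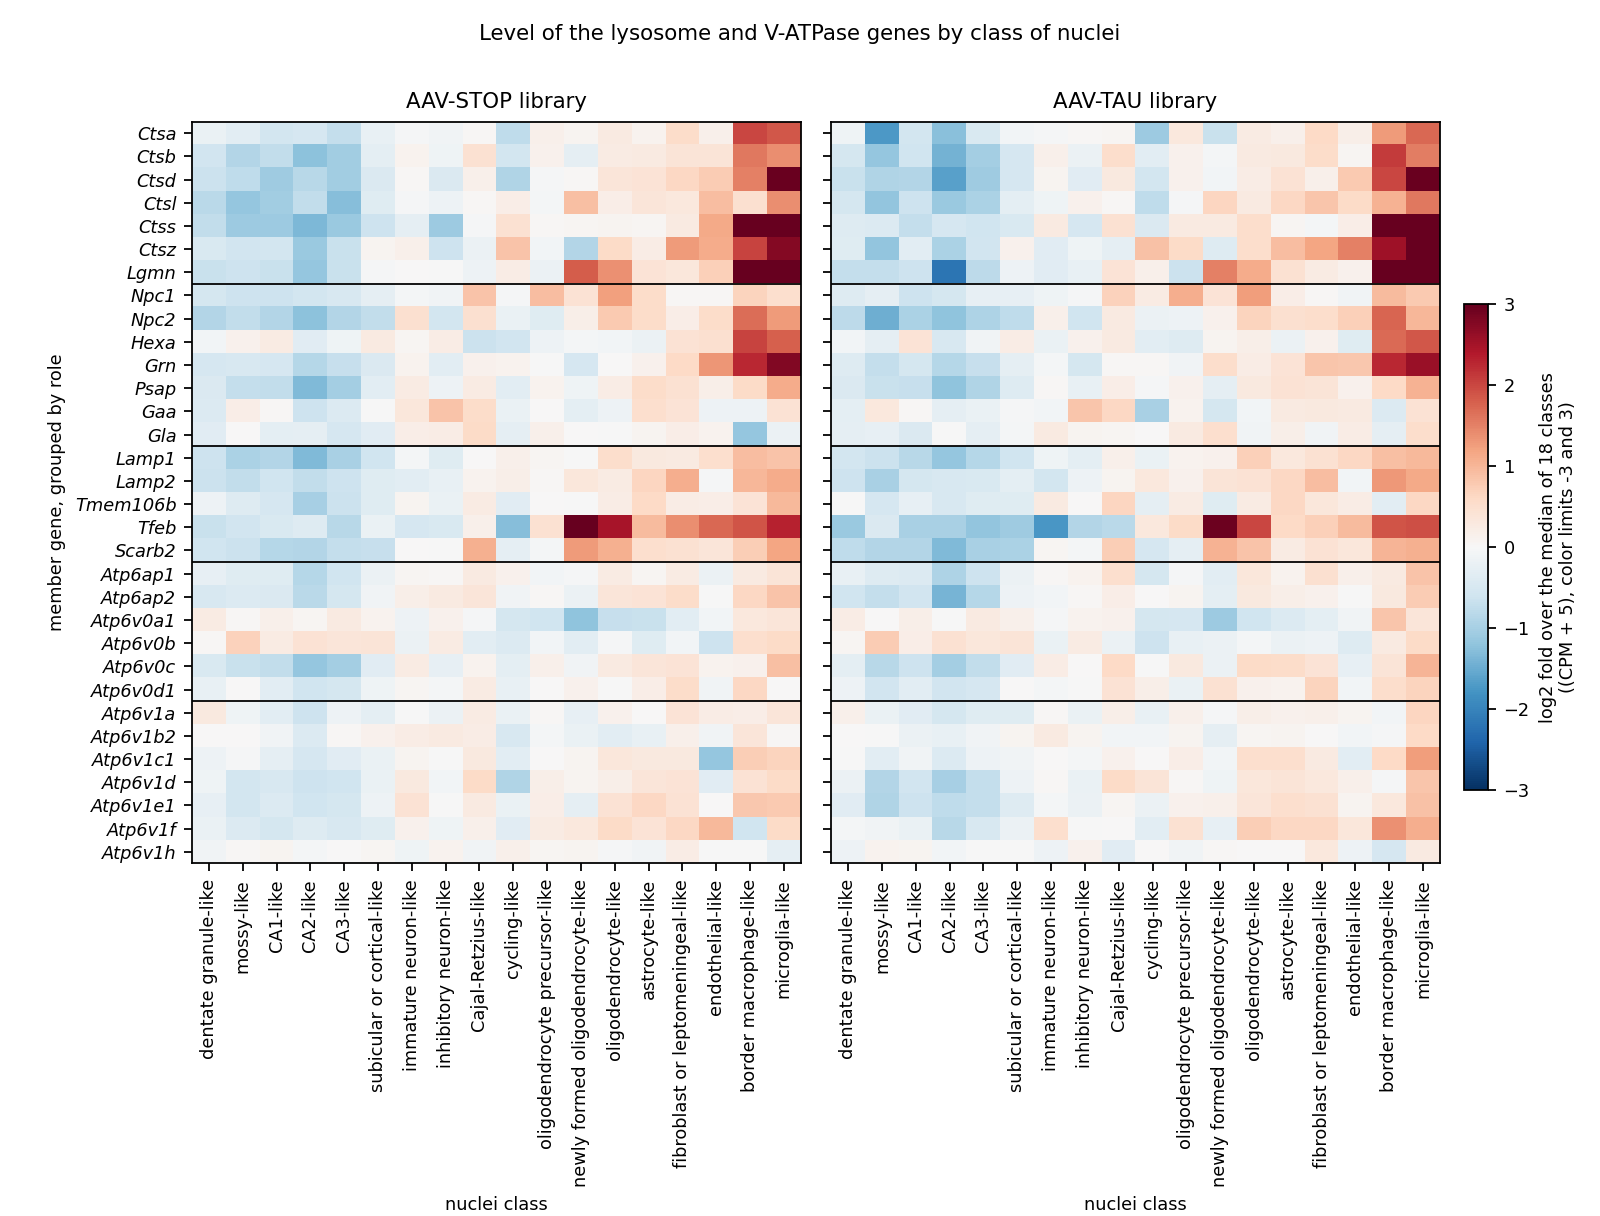
Level of each of the 32 members (vertical axis, grouped by role) in 18 classes of nuclei (horizontal axis) in the AAV-STOP and AAV-TAU libraries, as the log2 fold of CPM + 5 over the median of the classes (color scale limited at both ends). The proteases Lgmn, Ctss and Ctsd are darkest in microglia-like nuclei, Tfeb in newly formed oligodendrocyte-like nuclei, and no pump gene is raised 2-fold in both libraries.

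Among the proteases, Lgmn (legumain, an asparaginyl endopeptidase) and Ctss had the widest ranges, Ctss in AAV-STOP (45.5-fold against 41-fold) and Lgmn in AAV-TAU (82.2-fold against 38.4-fold). Microglia-like nuclei held 808.3 CPM of it (723.9 to 899.8) in AAV-STOP and 848.7 CPM (793.8 to 906.4) in AAV-TAU, 18.4-fold and 18.1-fold the class median on the CPM + 5 scale. Border macrophage-like nuclei followed at 366.7 and 378.6 CPM, newly formed oligodendrocyte-like at 149.4 and 129.2 CPM, and dentate granule-like at 22.6 and 23.6 CPM. The first and second classes did not overlap in either library, and CA2-like nuclei were lowest. Ctss (cathepsin S, a cysteine protease of antigen-presenting cells) was at 672.7 and 665.0 CPM in microglia-like nuclei, 331.3 and 374.2 CPM in border macrophage-like nuclei and 17.5 and 16.7 CPM in dentate granule-like nuclei. Ctsd (cathepsin D, the main aspartic protease) was at 372.7 and 420.0 CPM in microglia-like nuclei and at 132.5 and 211.3 CPM in border macrophage-like ones. For both genes the microglia-like interval lay above every other class in both libraries. Ctsb (cathepsin B) was instead highest in border macrophage-like nuclei, at 406.4 and 638.4 CPM, with microglia-like nuclei at 363.0 and 432.5 CPM, and these intervals overlapped in AAV-STOP only. Ctsl (cathepsin L, 164.6 and 151.2 CPM) and Ctsz (cathepsin Z, 77.4 and 103.3 CPM) were also highest in microglia-like nuclei, within the interval of the next class. Ctsa (cathepsin A, which shields lysosomal galactosidase and sialidase) was highest in border macrophage-like nuclei in AAV-STOP at 114.9 CPM and in microglia-like nuclei in AAV-TAU at 98.6 CPM. The order of those 2 classes for Ctsa was within counting error.

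Glycan and lipid genes followed the same cells less uniformly. Psap (prosaposin, precursor of the saposin activators) was highest in microglia-like nuclei at 575.9 and 587.5 CPM, with the next class clear of its interval in both libraries. Grn (progranulin) was at 133.1 and 116.7 CPM there, 6.81-fold and 5.99-fold its class median. Hexa (the alpha subunit of beta-hexosaminidase) was at 130.7 and 134.9 CPM in microglia-like nuclei. All 3 intervals of Grn, Hexa and Psap lay above those of the neuronal classes, and for Grn and Hexa the border macrophage-like class overlapped the microglia-like one. Npc2 (a soluble cholesterol carrier) was highest in border macrophage-like nuclei at 106.0 and 123.3 CPM. Its partner Npc1 (the membrane cholesterol exporter) was highest in oligodendrocyte-like nuclei at 151.7 and 148.2 CPM, followed by oligodendrocyte precursor-like nuclei at 122.0 and 131.1 CPM. Gaa (acid alpha-glucosidase, which degrades glycogen) was highest in inhibitory neuron-like nuclei at 75.2 and 79.8 CPM, within the interval of Cajal-Retzius-like nuclei. Gla (alpha-galactosidase A) reached at most 11.5 CPM in any class and did not pass the level filter.

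Tfeb was highest in newly formed oligodendrocyte-like and oligodendrocyte-like nuclei and close to undetected in neurons. Newly formed oligodendrocyte-like nuclei held 102.7 CPM of it (79.4 to 130.7) in AAV-STOP and 123.7 CPM (95.8 to 157.1) in AAV-TAU, 8.87-fold and 7.69-fold the class median. Oligodendrocyte-like nuclei followed at 61.9 and 62.4 CPM and microglia-like at 55.7 and 59.3 CPM. Oligodendrocyte precursor-like nuclei were lower, at 1.38-fold and 1.48-fold the class median. Dentate granule-like nuclei held 2.70 and 2.71 CPM, and CA1-like nuclei 3.85 and 3.48 CPM. The newly formed class was clear of the next class in both libraries. Scarb2 (LIMP-2, the receptor that carries glucocerebrosidase to the lysosome) was at 169.7 and 160.6 CPM in newly formed oligodendrocyte-like nuclei and at 159.7 and 162.7 CPM in microglia-like nuclei, which overlapped. The structural membrane glycoproteins Lamp1 and Lamp2 were highest in microglia-like or border macrophage-like nuclei. Lamp1 peaked at 304.8 CPM in AAV-STOP and 334.9 CPM in AAV-TAU, and Lamp2 at 222.6 and 251.0 CPM. Tmem106b (a lysosomal membrane protein linked to frontotemporal dementia) was highest in microglia-like nuclei in AAV-STOP (113.7 CPM) and in Cajal-Retzius-like nuclei in AAV-TAU (82.2 CPM), each within the interval of astrocyte-like nuclei.

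Pump genes were spread more evenly over the classes than the proteases. Atp6v0c (the c subunit of the proton-moving ring) was highest in microglia-like nuclei at 505.8 and 523.4 CPM, clear of the next class in both libraries, and lowest in CA2-like nuclei at 116.7 and 122.0 CPM. Atp6v0b (the c'' subunit of the same ring) was highest in mossy-like neurons at 638.3 and 697.5 CPM, within the interval of microglia-like nuclei. Atp6v0a1 (the a1 subunit, abundant in neurons) was lowest in newly formed oligodendrocyte-like nuclei at 119.8 and 131.1 CPM and stood at 334.3 and 334.7 CPM in dentate granule-like neurons. It was highest in microglia-like nuclei in AAV-STOP (363.0 CPM) and in border macrophage-like nuclei in AAV-TAU (510.7 CPM). Atp6v0d1 peaked at 79.5 CPM in AAV-STOP border macrophage-like and at 92.8 CPM in AAV-TAU microglia-like nuclei. The accessory subunit genes Atp6ap1 (96.8 and 143.5 CPM) and Atp6ap2 (the prorenin receptor, 186.3 and 196.1 CPM) had their highest levels in microglia-like nuclei. None of the last 3 genes was clear of the next class.

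The V1 genes had different leading classes in the 2 libraries, apart from Atp6v1d and Atp6v1h. Atp6v1h (the regulatory H subunit) was highest in fibroblast or leptomeningeal-like nuclei at 124.4 and 136.2 CPM. Atp6v1d (a subunit of the central stalk) was highest in microglia-like nuclei at 150.0 and 236.3 CPM. The catalytic subunit gene Atp6v1a led in fibroblast or leptomeningeal-like nuclei in AAV-STOP (189.1 CPM) and in microglia-like nuclei in AAV-TAU (274.6 CPM). Atp6v1b2 (the nucleotide-binding B2 subunit), Atp6v1c1 and Atp6v1e1 (a peripheral stalk subunit) led in border macrophage-like nuclei in AAV-STOP, at 150.2, 119.3 and 150.2 CPM. The same genes led in microglia-like nuclei in AAV-TAU, at 192.3, 187.5 and 228.7 CPM. Atp6v1f led in endothelial-like nuclei in AAV-STOP (49.5 CPM) and in border macrophage-like nuclei in AAV-TAU (83.7 CPM). In AAV-STOP, each of the 7 leading classes overlapped the next one. In AAV-TAU, Atp6v1a and Atp6v1e1 were clear of it.

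Some members passed a 2-fold limit for low levels in CA2-like nuclei, and few or none did in the other pyramidal classes. By the mirror rule, at least 2-fold below the class median in both libraries, 6 of 31 members were low in CA2-like nuclei (19.4%, against 7.26% of all genes): Lamp1, Ctsb, Npc2, Lgmn, Psap and Atp6v0c. In CA3-like nuclei Ctsb and Ctsd were low (6.45%, against 4.26%), a share near the background, and in CA1-like nuclei 0 of 31 were (against 3.29%). In mossy-like neurons 1 member, Ctsl, was low (3.23%, against 3.43%), and in newly formed oligodendrocyte-like nuclei 1, Atp6v0a1 (3.23%, against 5.81%). Lamp1 stood at 60.5 and 73.6 CPM in CA2-like nuclei and at 231.5 and 279.3 CPM in oligodendrocyte-like nuclei, and the intervals were apart.

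The libraries were then compared within each of 14 classes that held at least 100 nuclei in both. A log2 ratio is that of AAV-TAU CPM + 5 over AAV-STOP CPM + 5, so that values above 0 mean a higher level in AAV-TAU, and a gene was measured in a class where it had at least 100 pooled UMIs and a mean of 10 CPM. Genes of the V1 sector stood higher in AAV-TAU than the rest of the list. The median log2 ratio of the measured V1 genes was 0.25 in dentate granule-like nuclei and 0.24 in inhibitory neuron-like nuclei, with 0.28 in both pyramidal classes, CA1-like and CA3-like. In glia it was 0.47 in oligodendrocyte-like, 0.40 in astrocyte-like and 0.63 in microglia-like nuclei. The medians of all genes tested were between 0.00 and 0.07 in those 7 classes. Those of the V0 and accessory genes lay between 0.03 (CA1-like) and 0.14 (oligodendrocyte-like), with 0.08 in dentate granule-like and 0.06 in microglia-like nuclei. Those of the lysosomal members lay between -0.02 (astrocyte-like) and 0.14 (CA3-like), with 0.08 in dentate granule-like and 0.03 in microglia-like nuclei. Outside these 7 classes, the V1 median was 0.30 in oligodendrocyte precursor-like and 0.19 in newly formed oligodendrocyte-like nuclei. These glial values were near or below the neuronal ones.

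The V1 median lay above the V0 median and above that of all genes in 14 of 14 classes, and above the lysosomal one in 13. The lowest V1 median was 0.11, in fibroblast or leptomeningeal-like nuclei, where the lysosomal median was 0.16. Some medians rest on few genes: 2 V1, 4 V0 and 4 lysosomal genes in Cajal-Retzius-like nuclei, and 5, 4 and 8 in newly formed oligodendrocyte-like nuclei. The sets also differ between classes, as Atp6v1f was measured in 9 of the 14. The classes come from the same 2 libraries and are not replicates of the vector groups. The plot of ratios by role shows most V1 genes above most genes of the other roles in the glial classes, and more mixing in the neuronal ones. The roles overlapped in glia too. Atp6v1h, at 0.14 in astrocyte-like and 0.06 in oligodendrocyte-like nuclei, lay among the other roles. In microglia-like nuclei Atp6v0d1, at 0.81, stood above every measured V1 gene, the highest of which was at 0.70.

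**Figure D2:**
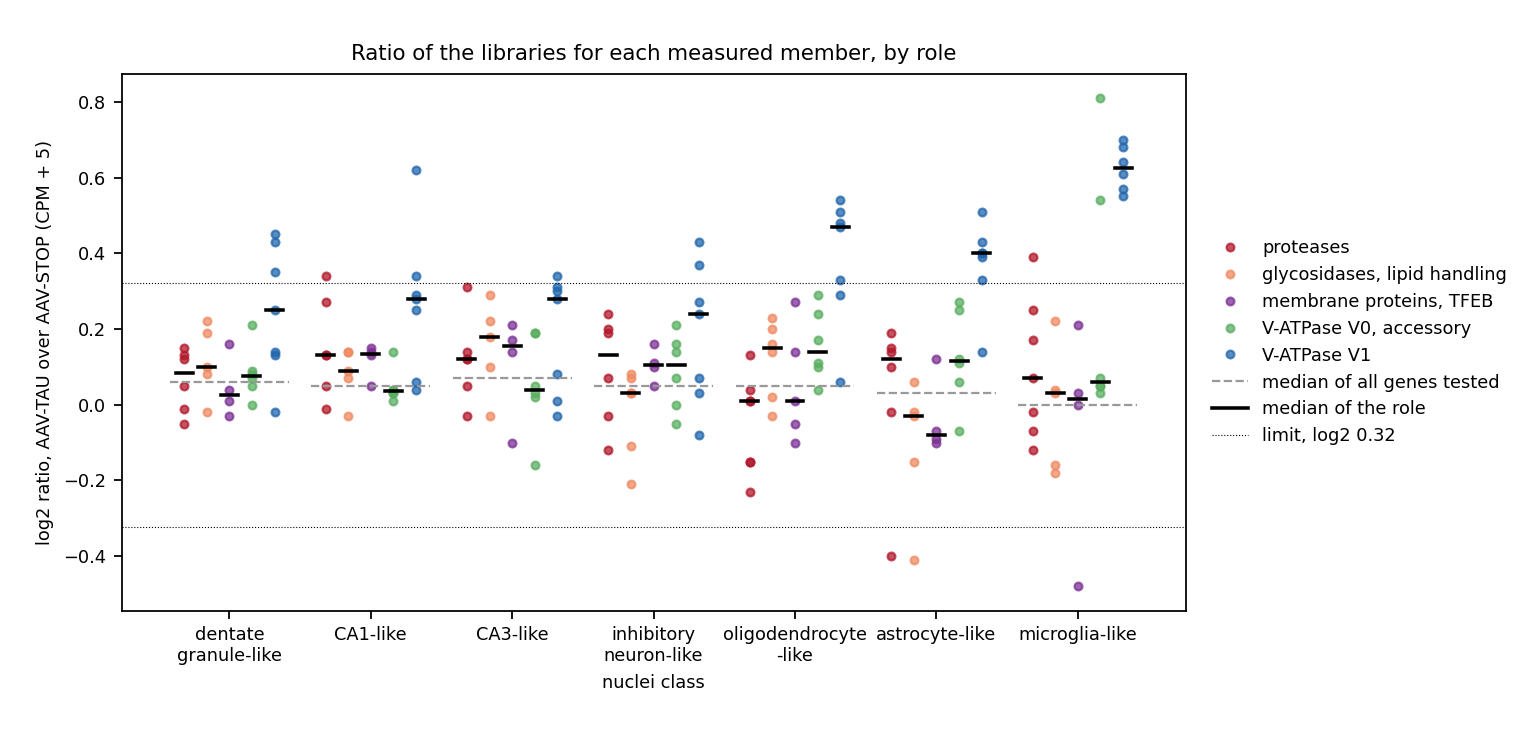
Log2 ratio of AAV-TAU over AAV-STOP (CPM + 5, vertical axis) of each measured member in 7 classes of nuclei (horizontal axis), colored by role; black bars are medians of a role, dashed lines the median of all genes tested, and dotted lines mark the limit of log2 0.32. V1 medians run from 0.24 in inhibitory neuron-like to 0.63 in microglia-like nuclei.

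A member was counted as higher or lower when its log2 ratio passed 0.32 in either direction, a rule of size and not a test. In dentate granule-like neurons 3 of 28 measured members were higher, Atp6v1f, Atp6v1e1 and Atp6v1d, where 5% of 9113 genes were. In CA1-like neurons 3 of 28 were higher, Atp6v1f, Ctsd and Atp6v1e1, against 4.52% of genes, and in CA3-like neurons 1 of 28, Atp6v1e1, against 7.08%. In inhibitory neuron-like nuclei Atp6v1f and Atp6v1e1 were the 2 higher of 29, against 6.38%. No member was lower by this rule in these 4 classes, where 0.0878%, 0.0889%, 0.655% and 0.618% of genes were lower. The shares of members, 10.7%, 10.7%, 3.57% and 6.9% in that order, exceeded the background in the dentate granule-like and CA1-like classes and were near or below it in the other 2. In these 4 classes, a limit of 1.5-fold left 1 member in CA1-like neurons, Atp6v1f, and 0 in the others. Shares of all genes at that limit are not given here. With the other alternatives the CA3-like count ran from 0 to 5.

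In 3 glial classes more members were past the limit, and so were more of all genes. In oligodendrocyte-like nuclei 5 of 31 were higher, against 14.3% of genes, a share of 16.1% near the background, and all 5 were V1 genes: Atp6v1d, Atp6v1b2, Atp6v1f, Atp6v1e1 and Atp6v1a. In astrocyte-like nuclei 6 of 28 (21.4%) were higher, against 14.9%: the same 5 genes and Atp6v1c1. In microglia-like nuclei 9 of 28 (32.1%) were higher, against 15.9%: the 6 measured V1 genes, Atp6v0d1, Atp6ap1 and Ctsz. Members were lower in 0 cases in oligodendrocyte-like nuclei (against 2.71%), in 2 in astrocyte-like nuclei (Npc1 and Ctss, against 7.11%) and in 1 in microglia-like nuclei (Tmem106b, against 11.5%). With a limit of 1.5-fold, 0 members were counted higher in oligodendrocyte-like and in astrocyte-like nuclei and 5 in microglia-like nuclei. Shares of all genes at this limit are not given here, so these counts have no background.

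In the 7 remaining classes the counts were small. In CA2-like nuclei 2 of 16 were higher, Atp6v1a and Atp6v1e1 (against 7.71%), and 1 lower, Atp6ap2 (against 5.51%). In Cajal-Retzius-like nuclei Atp6v0c and Atp6v1d were the 2 higher of 10 (against 13.7%), and in fibroblast or leptomeningeal-like nuclei Atp6v1e1 was the 1 higher of 18 (against 15.9%). In immature neuron-like nuclei 2 of 26 were higher, Atp6v1f and Atp6v1a (against 10.7%), and 1 lower, Ctsl (against 6.5%). In newly formed oligodendrocyte-like nuclei 3 of 17 were higher, Atp6v1e1, Atp6v1a and Ctsb (against 11.9%), and 1 lower, Ctsl (against 9.95%). In oligodendrocyte precursor-like nuclei 3 of 26 were higher, Atp6v1f, Atp6v1e1 and Atp6v1a (against 13.8%), and 1 lower, Lgmn (against 5.23%). In subicular or cortical-like nuclei Atp6v1f and Atp6v1d were the 2 higher of 28 (against 9.69%). No member was lower in subicular or cortical-like, Cajal-Retzius-like or fibroblast or leptomeningeal-like nuclei, where 2.13%, 13.7% and 14.7% of genes were. Shares of members exceeded the background in 3 of these classes, CA2-like, Cajal-Retzius-like and newly formed oligodendrocyte-like, and 13 of the 15 higher calls were of V1 genes. Atp6v1e1 in newly formed oligodendrocyte-like and Atp6v1f in immature neuron-like nuclei passed the filter through their AAV-TAU counts. Ctsl in newly formed oligodendrocyte-like and Lgmn in oligodendrocyte precursor-like nuclei passed it through their AAV-STOP counts.

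Atp6v1e1 was higher in the most classes, 11 of the 13 in which it was measured. Its level in dentate granule-like neurons was 70.1 CPM (67.1 to 73.2) in AAV-STOP against 96.5 CPM (92.5 to 100.6) in AAV-TAU, a ratio of 1.38 (1.29 to 1.46). The intervals did not overlap, and they were apart too in CA3-like neurons, at 56.1 and 72.3 CPM (1.29, interval 1.15 to 1.45). In oligodendrocyte-like nuclei it was at 114.0 and 159.5 CPM (1.40, interval 1.26 to 1.56). In newly formed oligodendrocyte-like nuclei it was at 68.5 and 136.6 CPM, a log2 ratio of 0.95 and the highest of its classes. It passed the filter there through its AAV-TAU counts. In immature neuron-like nuclei it was at 113.2 and 117.9 CPM, a log2 ratio of 0.06 and the lowest. Atp6v1e1 overlaps the body of Slc25a18, a mitochondrial glutamate carrier gene on the opposite strand.

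Atp6v1f (a small V1 subunit) was past the limit in 8 of its 9 measured classes, with a median log2 ratio of 0.50. Among these, it passed the filter in immature neuron-like nuclei through its AAV-TAU counts. It was at 14.3 and 24.7 CPM in CA1-like neurons, a ratio of 1.72 (1.47 to 2.03), and at 19.1 and 28.1 CPM in dentate granule-like neurons. In astrocyte-like nuclei it was at 31.8 and 47.6 CPM (1.50, interval 1.07 to 2.12). AAV-TAU was the higher library in each of these classes, and the intervals of the levels overlapped in astrocyte-like nuclei only. Atp6v1f is the shortest V1 gene, at 2.79 kb, and the levels of genes that short were higher in AAV-TAU as a group. Of all genes under 5 kb, 29.8% in CA1-like, 34.3% in dentate granule-like and 47.2% in astrocyte-like nuclei were past the limit higher. Microglia-like nuclei held 15 and 71 UMIs of Atp6v1f, under the limit for a measured ratio.

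Atp6v1d, Atp6v1a and Atp6v1b2 were each past the limit in microglia-like, oligodendrocyte-like and astrocyte-like nuclei. Other classes were mixed: Atp6v1d had log2 ratios of 0.45 in subicular or cortical-like and 0.24 in oligodendrocyte precursor-like nuclei, and Atp6v1b2 one of 0.05 in newly formed oligodendrocyte-like nuclei. In oligodendrocyte-like nuclei Atp6v1d was at 112.7 CPM (103.4 to 122.7) and 165.8 CPM (155.1 to 177.1), a ratio of 1.47 (1.32 to 1.64). Atp6v1b2 was at 91.4 and 131.9 CPM there (1.44, interval 1.28 to 1.63), and Atp6v1a at 154.9 and 196.3 CPM (1.27, interval 1.15 to 1.39). AAV-TAU was higher for each, with level intervals apart. In dentate granule-like neurons Atp6v1b2 was at 115.3 and 126.4 CPM and Atp6v1a at 175.3 and 193.5 CPM, ratios of 1.10 for both. In inhibitory neuron-like nuclei Atp6v1b2 was lower in AAV-TAU, at 140.1 and 132.6 CPM, with overlapping intervals. Atp6v1d was above 0 in 13 of 14 classes and Atp6v1a in 14 of 14, while Atp6v1b2 was above 0 in 10 of 13.

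Atp6v1c1 (a subunit involved in assembly of the pump) was above 0 in all 12 classes in which it was measured, past the limit in 2. It was at 62.8 and 75.9 CPM in dentate granule-like neurons and at 54.0 and 68.2 CPM in CA3-like neurons (ratio 1.26, 1.12 to 1.42), where its log2 ratio of 0.31 was just short of the limit. Atp6v1h stood near 0 in most classes. It was at 98.8 and 97.4 CPM in dentate granule-like neurons, a ratio of 0.986 (0.932 to 1.04), and its median log2 ratio over 13 classes was 0.01. Of the V1 genes it has the longest gene body, 92.5 kb.

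**Figure D3:**
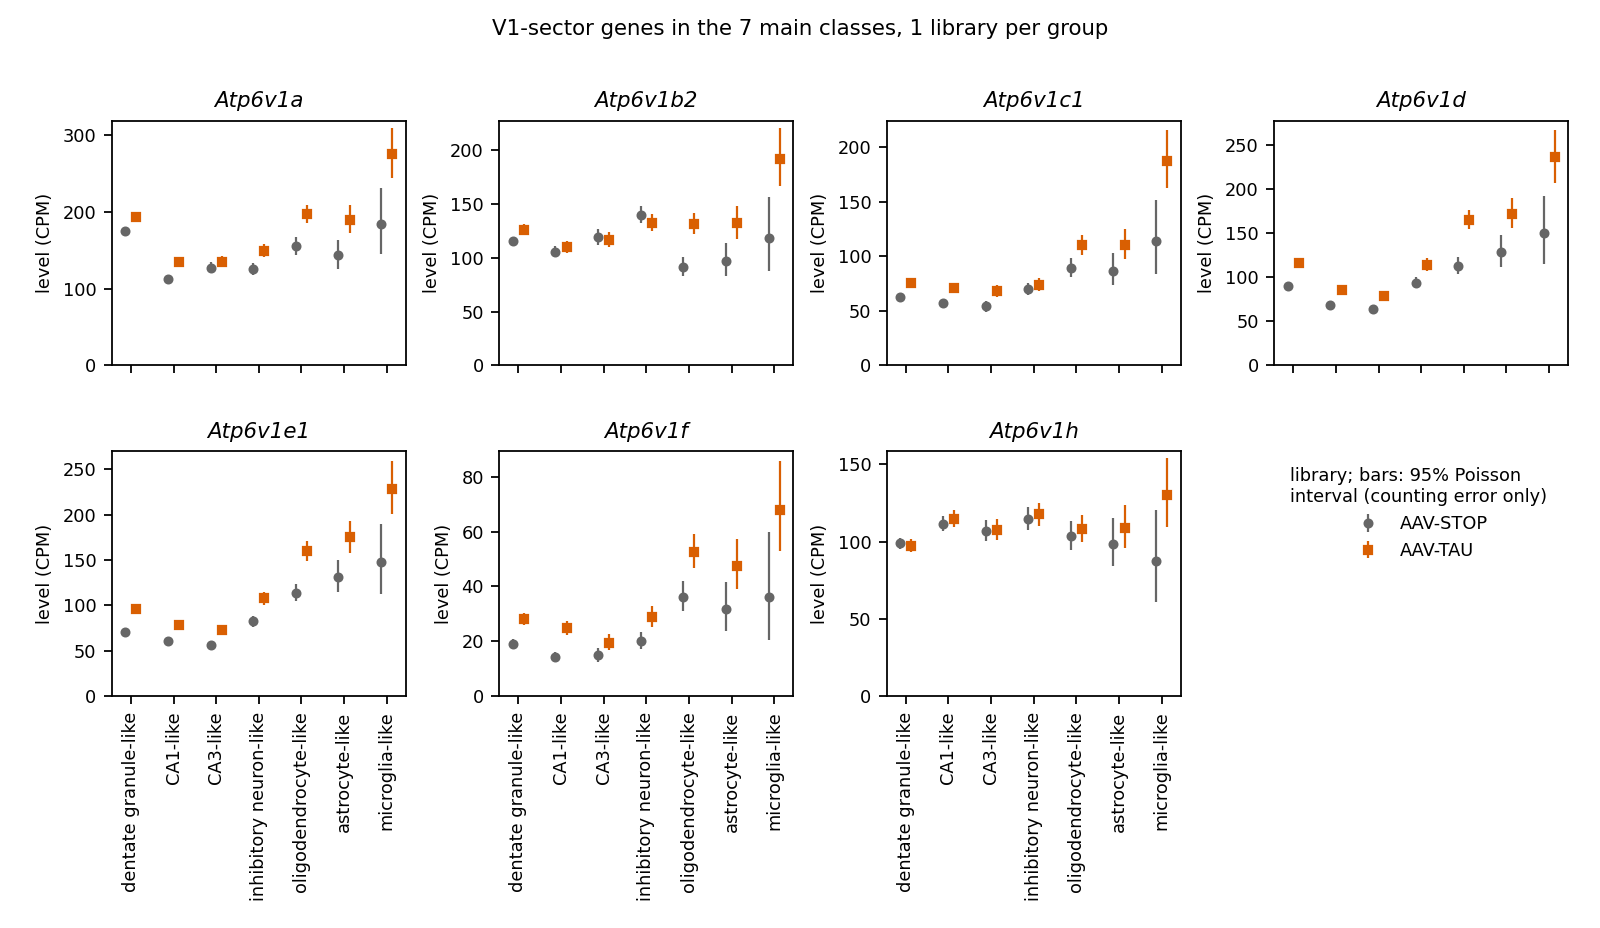
CPM (vertical axis, from 0) of the 7 V1 genes in 7 classes of nuclei (horizontal axis) in the AAV-STOP library (grey circles) and the AAV-TAU library (orange squares), with 95% Poisson intervals that cover counting error only. Atp6v1e1 is higher in AAV-TAU in each class shown, Atp6v1h differs little outside microglia-like nuclei, and the intervals widen from neurons to microglia-like nuclei.

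Microglia-like nuclei had the highest V1 median of the 14 classes, on the fewest UMIs of the 7 main classes. Atp6v1b2 was at 118.6 CPM (87.7 to 156.8) and 192.3 CPM (166.7 to 220.8), a ratio of 1.62 (1.18 to 2.26). Atp6v1c1 was at 113.7 and 187.5 CPM (1.65, interval 1.19 to 2.32) and Atp6v1h at 87.1 and 130.1 CPM (1.49, interval 1.03 to 2.22). All 6 measured V1 genes were higher in AAV-TAU, and the level intervals of Atp6v1h overlapped. The highest log2 ratio of the class, 0.81, was that of Atp6v0d1 (a V0 subunit that links the ring to the stalk), at 50.8 and 92.8 CPM on 21 and 97 UMIs (ratio 1.83, 1.13 to 3.08). Atp6ap1 was at 96.8 and 143.5 CPM (1.48, interval 1.04 to 2.16). The other V0 and accessory genes were near equal, with Atp6v0c at 505.8 and 523.4 CPM and Atp6v0b at 588.0 and 608.5 CPM.

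The microglia-like class was small and uneven: 172 AAV-STOP and 520 AAV-TAU nuclei, with median UMI counts of 2236 and 1926. Only 154 and 198 nuclei had at least 2000 UMIs, and with these the V1 median was 0.58. With a stricter filter (300 pooled UMIs and 20 CPM) 3 members were counted higher in place of 9, and the share of all genes under it is not given here. Clusters left unnamed because microglial markers were mixed with those of other cells held 250 AAV-STOP and 123 AAV-TAU nuclei. When they were added, an alternative chosen after seeing the data, the V1 median was 0.79, the lysosomal median 0.59 in place of 0.03, and 26 of 31 members were counted higher (83.9%). In the same setting 35.1% of all genes were higher, and the median of all genes was 0.16 in place of 0.00. A sum of 4 neuronal markers (Rbfox3, Snap25, Syt1 and Nrgn) was at 2277 CPM in the AAV-STOP microglia-like nuclei and 2667 CPM in the AAV-TAU ones. The 8 microglial markers summed to 5699 and 5522 CPM and the 7 astrocyte markers to 617.1 and 404.7 CPM. The part of other cells' RNA in these ratios was not tested.

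In oligodendrocyte-like nuclei the 4 neuronal markers summed to 1429 CPM in AAV-STOP and 1886 CPM in AAV-TAU, and in astrocyte-like nuclei to 1488 and 1859 CPM. In dentate granule-like neurons they summed to 4688 and 4721 CPM, and the 7 oligodendrocyte markers there to 577.5 and 654.2 CPM. Median mitochondrial shares were 0.293% and 0.43% in oligodendrocyte-like, 0.194% and 0.234% in astrocyte-like and 0.169% and 0.269% in dentate granule-like nuclei. Among nuclei with at most 0.2% mitochondrial UMIs, the dentate granule-like V1 median was 0.36 in place of 0.25. Among the same nuclei the log2 ratio of Atp6v1f was 0.18 in place of 0.48 in oligodendrocyte-like nuclei, and that of Atp6v1e1 0.22 in place of 0.37 in inhibitory neuron-like nuclei, both short of the limit. Unnamed clusters with oligodendrocyte markers held 82 AAV-STOP and 457 AAV-TAU nuclei. With them, again an alternative chosen after seeing the data, the oligodendrocyte-like V1 median was 0.62, the V0 median 0.36 in place of 0.14, and 15 of 31 members (48.4%) were counted higher in place of 5, where 22% of all genes were. The part of neuronal RNA and RNA quality in the V1 ratios was not tested.

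Gene length moved with the ratio across all genes. Genes under 5 kb had median log2 ratios of 0.23 in dentate granule-like, 0.30 in oligodendrocyte-like, 0.30 in astrocyte-like and 0.32 in microglia-like nuclei, and Atp6v1f is one of them. Genes of 20 to 50 kb had medians of 0.07, 0.05, 0.06 and 0.04. Atp6v1b2, Atp6v1c1, Atp6v1d and Atp6v1e1, which lie between 20.9 and 30.5 kb, stood at log2 ratios of 0.29 to 0.54 in oligodendrocyte-like nuclei. In that length range 9.5% of 2705 genes were past the limit higher in oligodendrocyte-like nuclei and 1.24% of 2669 in dentate granule-like neurons. The shares were 15.1% in astrocyte-like and 17.1% in microglia-like nuclei. Under 5 kb they were 34.3% in dentate granule-like, 47.9% in oligodendrocyte-like, 47.2% in astrocyte-like and 50% in microglia-like nuclei. Spearman's rho between log2 ratio and gene length was -0.48 over all genes and -0.36 over the 28 measured members in dentate granule-like neurons, and -0.38 and 0.24 in microglia-like nuclei. These correlations are across genes of the same pair of libraries, and genes are not independent replicates.

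**Figure D4:**
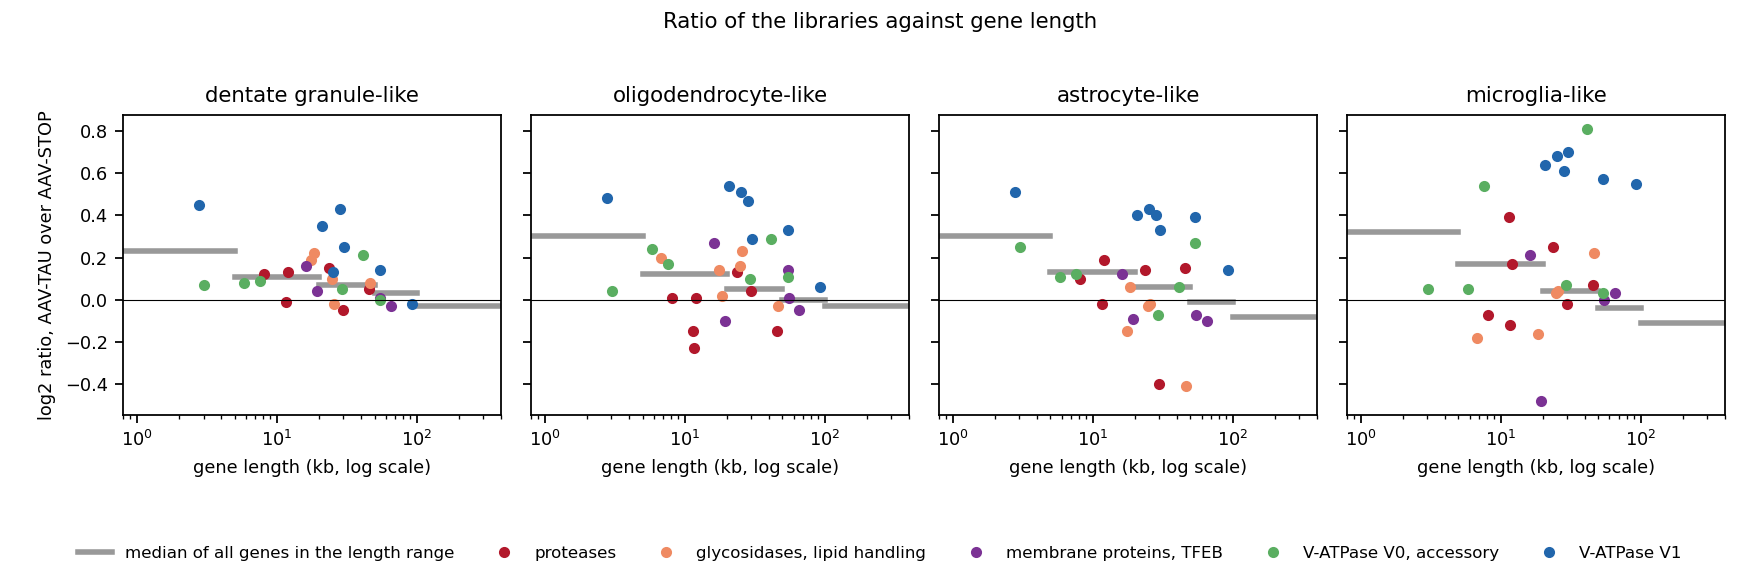
Log2 ratio of AAV-TAU over AAV-STOP (vertical axis) against gene length in kb (horizontal log axis) for the measured members in 4 classes, colored by role; grey bars are medians of all genes in 5 length ranges. The V1 genes between 20.9 and 30.5 kb lie above the grey bar in each class shown, and Atp6v1f stands at the short end.

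V0 and accessory genes were past the limit higher in 2 classes, 2 of 6 in microglia-like and 1 of 4 in Cajal-Retzius-like nuclei (15.9% and 13.7% of all genes). Of the microglia-like calls, that of Atp6v0d1 is of a gene that passed the filter through its AAV-TAU counts. The V0 and accessory median was 0.19 in Cajal-Retzius-like nuclei, where that of all genes was -0.04, and 0.12 against 0.03 in astrocyte-like nuclei. In dentate granule-like neurons Atp6v0a1 was at 334.3 and 334.7 CPM (ratio 1.00, 0.971 to 1.03), Atp6v0b at 403.6 and 424.9 CPM and Atp6v0c at 194.2 and 206.1 CPM. The libraries thus differed by at most a few percent for Atp6v0a1 at this counting error. Atp6v0d1 was above 0 in 10 of 11 classes with a median of 0.21, and in dentate granule-like neurons it was at 42.4 and 50.0 CPM. Atp6v0c was past the limit in Cajal-Retzius-like nuclei alone, at 288.5 and 385.8 CPM, where 13.7% of genes were. Atp6ap2 was the lowest member in CA2-like, CA3-like and fibroblast or leptomeningeal-like nuclei. In CA3-like neurons it was at 67.9 and 60.4 CPM (0.890, interval 0.792 to 0.999), and its log2 ratio in CA2-like nuclei was -0.40, where 5.51% of genes were counted lower. Atp6v0b had the third lowest ratio in CA1-like neurons, at 468.4 and 471.3 CPM.

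The proteases showed no shared direction. Ctsd was past the limit in CA1-like neurons, at 18.3 and 24.5 CPM (1.34, interval 1.15 to 1.56), and above 0 in all 10 classes in which it was measured, with a median of 0.18. Ctsb was above 0 in 12 of 14 classes with a median of 0.15, and stood at 88.4 and 99.0 CPM in dentate granule-like neurons. Ctsa was highest of the proteases in CA3-like neurons, at 13.3 and 17.6 CPM (1.32, interval 1.04 to 1.69). These 3 genes were mostly above 0, while the next 3 were not. Ctsl was above 0 in 3 of 12 classes and past the limit lower in 2, with a log2 ratio of -0.56 in newly formed oligodendrocyte-like and -0.38 in immature neuron-like nuclei. In oligodendrocyte-like nuclei it was at 67.8 and 57.2 CPM (0.843, interval 0.719 to 0.989). Lgmn was at 108.7 and 97.7 CPM in oligodendrocyte-like nuclei and at 39.0 and 35.6 CPM in inhibitory neuron-like nuclei, and its lowest log2 ratio was -0.39, in oligodendrocyte precursor-like nuclei. Level intervals of Lgmn overlapped in both named classes. Ctss was at 34.3 and 24.7 CPM in astrocyte-like nuclei on 56 and 57 UMIs (0.720, interval 0.489 to 1.06), so that equal levels lay within counting error, and in microglia-like nuclei it was at 672.7 and 665.0 CPM. Ctsz was measured in 2 classes only, at 77.4 and 103.3 CPM in microglia-like nuclei (1.33, interval 0.892 to 2.05) and at 13.1 and 11.3 CPM in oligodendrocyte-like nuclei.

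Lipid and glycan genes were close to equal in most classes. Npc1 was lower in AAV-TAU astrocyte-like nuclei, at 91.8 CPM (77.7 to 107.8) against 68.0 CPM (57.7 to 79.5), a ratio of 0.740 (0.588 to 0.932). The level intervals overlapped slightly. Npc1 was above 0 in 5 of 11 classes, and in CA1-like neurons it was at 38.0 and 37.0 CPM. Npc2 was at 14.0 and 17.1 CPM in dentate granule-like neurons (1.22, interval 1.06 to 1.41) and at 79.9 and 70.8 CPM in microglia-like nuclei (0.887, interval 0.581 to 1.38). Psap was above 0 in 11 of 14 classes with a median of 0.04, at 193.6 and 207.5 CPM in dentate granule-like neurons. Grn was measured in 3 classes and was at 133.1 and 116.7 CPM in microglia-like and 11.4 and 9.19 CPM in inhibitory neuron-like nuclei. Both Grn ratios had intervals that held 1. With the mixed microglial clusters added, the log2 ratio of Grn was 0.51 in place of -0.18. Hexa was above 0 in 3 of 9 classes, with 40.5 and 37.1 CPM in inhibitory neuron-like nuclei. Gaa was at 58.2 and 51.9 CPM in astrocyte-like nuclei and above 0 in 7 of 9 classes. No ratio of Gla was measured in any of the 14 classes.

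In the set of membrane proteins and Tfeb, Lamp1 was above 0 in 14 of 14 classes without passing the limit in any. Its log2 ratios ran from 0.04 to 0.29 with a median of 0.19. In oligodendrocyte-like nuclei Lamp1 was at 231.5 CPM (218.1 to 245.6) and 279.3 CPM (265.4 to 293.8), a ratio of 1.21 (1.12 to 1.31), and in dentate granule-like neurons at 101.5 and 114.2 CPM. The intervals were apart in both. Lamp2 was above 0 in 10 of 13 classes with a median of 0.05. Scarb2 was above 0 in 5 of 13, at 42.9 and 41.9 CPM in dentate granule-like and 38.7 and 35.7 CPM in CA3-like neurons. Tfeb was measured in 2 classes, at 61.9 and 62.4 CPM in oligodendrocyte-like and 102.7 and 123.7 CPM in newly formed oligodendrocyte-like nuclei. Tfeb thus differed by less than counting error in both. Tmem106b was lower in AAV-TAU microglia-like nuclei, at 113.7 and 80.4 CPM on 47 and 84 UMIs (0.707, interval 0.489 to 1.03). Its log2 ratio of -0.48 turned to 0.18 with the mixed microglial clusters added.

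Atp6v1f had the highest ratio in immature neuron-like (log2 0.67), oligodendrocyte precursor-like and subicular or cortical-like nuclei. In immature neuron-like nuclei it passed the filter through its AAV-TAU counts. Ctsl had the lowest in subicular or cortical-like and Scarb2 in Cajal-Retzius-like nuclei (-0.20). Over finer clusters with at least 100 nuclei in both libraries, the V1 median was above 0 in 21 of 21, from 0.07 to 0.63. These clusters divide the same 2 libraries and add no replicate.

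Pump genes outside the list gave a mixed picture. Of the other V-ATPase subunit and assembly genes, 4 of 12 measured were past the limit higher in oligodendrocyte-like nuclei (33.3%, against 14.3%), led by Atp6v1g2 at 46.8 and 69.6 CPM, and 1 of 11 in dentate granule-like neurons (9.09%, against 5%). That gene was Atp6v1g1, a further V1 subunit, at 19.4 and 26.4 CPM. Atp6v1g1 was also past the limit in CA1-like, CA3-like, inhibitory neuron-like, oligodendrocyte-like, oligodendrocyte precursor-like and astrocyte-like nuclei, with log2 ratios of 0.33 in CA3-like and 0.63 in oligodendrocyte precursor-like nuclei. In oligodendrocyte precursor-like nuclei it passed the filter through its AAV-TAU counts. In astrocyte-like nuclei 2 of 11 were higher (18.2%, against 14.9%), Atp6v1g1 and Ncoa7, and in microglia-like nuclei 1 of 9, Rnasek, at a log2 ratio of 0.37 (11.1%, against 15.9%). In astrocyte-like and microglia-like nuclei Atp6v0a2, a V0 subunit, was lower, with log2 ratios of -0.44 and -0.49. Other lysosomal hydrolases had a median of -0.06 in oligodendrocyte-like and -0.16 in astrocyte-like nuclei, where Tpp1, a tripeptidyl peptidase, had the lowest log2 ratio, -0.49.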

How the data were processed

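The members, the lists and the rules were chosen with earlier results of these data known. The deposited matrices hold the authors' UMI counts per gene and nucleus. Per the submitters' processing notes, Cell Ranger 4.0 and Seurat 4.4.0 were used with build mm10, while the file headers name Cell Ranger 8.0.1, so the version behind the counts is unsettled. Nuclei with under 500 UMIs, under 300 genes or over 5% mitochondrial UMIs were removed (4 in AAV-STOP and 2 in AAV-TAU). Doublets were marked by nearest neighbours among simulated doublets, 2347 (11.6%) and 1813 (9.25%), and removed. Nuclei were clustered with leidenalg 0.10.2 at resolution 1 on 30 principal components of 3000 variable genes, members left out, and 30 of 49 clusters were named from marker lists. Of the 19 classes, 18 with at least 50 nuclei in both libraries were used for levels and 14 with at least 100 for ratios.

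UMIs were summed per class and library and divided by the class total (Python 3.11.15, numpy 2.4.6, scipy 1.17.1, pandas 2.3.3, igraph 0.11.9). Levels have exact 95% Poisson intervals and ratios exact conditional binomial intervals, both for counting error only. The ratio step was tested on simulated data. In each of the 7 main classes the text names the 3 members with the highest and the 3 with the lowest log2 ratio, in other classes the single highest and lowest, and for levels each member's highest class. Members named beside a count of those past a limit were named after their values were seen where this rule does not cover them. Gene positions are those of GENCODE vM21 on mm10. Alternatives were other pseudocounts, filters, scalings, limits, resolutions, doublet treatment, depth, mitochondrial share and the inclusion of unnamed clusters.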

Additional observations from a re-analysis of the deposited data

How the results depend on the processing

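No paired analysis was possible because each group is 1 library, and for the same reason no replicate could be left out. Of the values that answer a comparison, 616 kept their call or stayed within counting error under the alternatives listed at the start and 46 moved. The V1 median stayed above 0 in all 7 main classes under each alternative listed at the start, from 0.19 to 0.36 in dentate granule-like, 0.37 to 0.48 in oligodendrocyte-like and 0.56 to 0.66 in microglia-like nuclei, and 0.36 was that of nuclei with at most 0.2% mitochondrial UMIs. That setting also gave 2 higher members in CA3-like nuclei, 4 in inhibitory neuron-like nuclei, and it was not run in microglia-like nuclei, where 63 AAV-STOP nuclei remained. With a limit of 1.5-fold, higher members were 0 in dentate granule-like, CA3-like, inhibitory neuron-like, oligodendrocyte-like and astrocyte-like nuclei, 1 in CA1-like and 5 in microglia-like nuclei, and lower ones 0. A pseudocount of 10 CPM or median of ratios scaling gave 1 higher member in CA1-like neurons, 0 in CA3-like neurons, and the scaling 1 in inhibitory neuron-like nuclei. CA3-like neurons had 5 with a pseudocount of 1 CPM, 4 with nuclei thinned to 1600 UMIs, with means over nuclei or inside finer clusters, and 0 at resolution 0.5. A filter of 300 UMIs and 20 CPM gave 3 higher and 0 lower in microglia-like and 1 lower in astrocyte-like nuclei. Lower members in astrocyte-like nuclei were 0 after thinning and 1 inside finer clusters, and in microglia-like nuclei 0 with at least 2000 UMIs. A 4-fold limit on levels left 5 members raised in microglia-like, 4 in border macrophage-like, and 1 each in oligodendrocyte-like and newly formed oligodendrocyte-like nuclei. Shares of all genes under these other limits and filters are not given here, so the counts have no background. For the endothelial-like class the single raised member became 2 with a pseudocount of 1 CPM, kept doublets, resolution 2, members among the variable genes or at least 2000 UMIs. It became 0 with a pseudocount of 10 CPM, a 20 CPM filter or a 4-fold limit. For the fibroblast or leptomeningeal-like class it became 3 at resolution 2 or with at least 2000 UMIs, and 0 with a pseudocount of 10 CPM, a 20 CPM filter, a 4-fold limit or kept doublets.

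The inclusion of unnamed clusters, chosen after seeing the data, moved most. With the mixed microglial clusters, the microglia-like median of all members was 0.60, that of lysosomal members 0.59, the V1 median 0.79, 26 members were higher (of all genes, 35.1%) and 0 lower, and Tmem106b was at 0.18 in place of -0.48. With the unnamed oligodendrocyte clusters, the V1 median was 0.62, the V0 median 0.36 and 15 members were higher (of all genes, 22%). The cause of these moves was not tested. Counting limits the ratios most in microglia-like nuclei, where the median interval of a member reaches 0.42 to either side on the log2 scale, against 0.10 in dentate granule-like neurons.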

Other observations

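Of a list of 24 genes of autophagy, which delivers cargo to the lysosome, several were past the limit higher in AAV-TAU. In oligodendrocyte-like nuclei 7 of 24 were past the limit of log2 0.32 (against 14.3% of all genes), and in astrocyte-like nuclei 7 of 22 (against 14.9%). Map1lc3a, an LC3 protein of the autophagosome membrane, had the highest ratio in both, at 25.9 and 50.9 CPM in oligodendrocyte-like and 25.1 and 54.1 CPM in astrocyte-like nuclei. In dentate granule-like neurons 5 of 23 were higher (against 5%), with Map1lc3a at 16.4 and 26.4 CPM. In microglia-like nuclei 5 of 11 were higher (against 15.9%), led by Gabarap, a related membrane protein, at 55.7 and 105.3 CPM. Gabarap passed the filter there through its AAV-TAU counts, as Map1lc3a did in astrocyte-like nuclei. In microglia-like nuclei 2 were lower, Nbr1, a cargo receptor, and Ulk2, a kinase that starts autophagy, which was lowest at 329.1 and 255.5 CPM. In fibroblast or leptomeningeal-like nuclei 2 of 9 were higher and 2 lower (against 15.9% and 14.7%). The median of the whole list was 0.07 in oligodendrocyte-like and 0.09 in dentate granule-like nuclei, near the medians of all genes, 0.05 and 0.06. It was 0.20 in astrocyte-like and 0.24 in microglia-like nuclei, where the medians of all genes were 0.03 and 0.00.

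Nutrient-sensing genes at the lysosome were led by Lamtor2, a subunit of the Ragulator scaffold, with 28 and 43.6 CPM in oligodendrocyte-like nuclei, where Flcn, a regulator of TFEB, was lowest at 24.7 and 18 CPM. In microglia-like nuclei the lysosomal membrane gene Laptm4a had the lowest ratio of its list, at 203.3 and 123.4 CPM. Sorting genes had medians of 0.04 in dentate granule-like, 0.05 in oligodendrocyte-like and 0.07 in astrocyte-like nuclei, where M6pr, a receptor that carries hydrolases to the lysosome, led at 33.7 and 51.1 CPM.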
